A study of Homo sapiens with 2 samples.

Results

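Runs of close E2F1 peaks are described here, in a chromatin immunoprecipitation sequencing (ChIP-seq) experiment on LNCaP-abl cells. A run was a chain of at least 3 consecutive peaks on 1 of the chromosomes 1 to 22, with under 1000 bp between the end of each peak and the start of the next. There were 203 such runs, which held 639 of the 28108 autosomal peaks, or 2.27% (exact Clopper-Pearson 95% interval 2.10 to 2.45%). The complete list has 28734 peaks. Another 4220 peaks stood in pairs at the same distance, and 23249 had no neighbour that close. The runs were chosen from the peak positions themselves. Their number, spans and scores all come from the same peak calls, so they are given as descriptions, without tests.

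E2F1 is a transcription factor that binds DNA together with a DP partner protein. It is held in check by the retinoblastoma protein and switches on genes for DNA replication and entry into S phase. It is best known for sitting close to the starts of genes. In ChIP-seq, DNA fragments bound to the protein pile up around a binding place, and a peak caller outlines each stretch where the pile stands above background. A group of peaks a short distance apart can be called from several binding places or from 1 broad, uneven pile, and a list without summits or signal does not tell these apart.

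LNCaP-abl is a prostate cancer cell line that grows without androgen, derived from the androgen-dependent LNCaP line. The cells, between passage 61 and passage 64, were cultured in charcoal-stripped serum and were without androgen for 3 days before harvest. Of the 2 samples, 1 was precipitated with a pair of E2F1 antibodies and 1 was input without antibody. Both came from the same line under the same culture conditions. Peaks of the E2F1 library were used. Signal of the input was not analysed here, so runs were not compared with input, and there is 1 library, without replicate. The number of reads behind a peak is unknown, as the list carries none. Intervals on shares therefore cover counting error only, and they treat peaks as independent. Peaks of a run come together, so the intervals are narrower than they should be.

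Most runs were as short as the rule allows. There were 178 runs of 3 peaks, 21 of 4, 3 of 5 and 1 of 6. Of 2313 chains with at least a pair of peaks, 203 reached a length of 3 (8.78%, interval 7.65 to 10.004%). Of those 203, 25 reached 4 (12.3%, interval 8.13 to 17.6%), and of those 25, 4 reached 5 (16.0%, interval 4.54 to 36.1%). These counts are nested and follow from the rule, and the later steps rest on few chains.

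The runs spanned between 1217 and 3974 bp from the start of the first peak to the end of the last. The median span was 2042 bp, with quartiles of 1758 and 2402 bp. Runs of 3 peaks had a median span of 1990 bp and runs of 4 had 3147 bp, beside 1299 bp for pairs. The widest single autosomal peak of the list measured 2828 bp, and 24 of the 203 runs were longer than it (11.8%). All runs together spanned 435.9 kb, of which peaks covered 64.5%. In single runs the covered share ran from 37.8 to 89.2%, with a median of 65.5%.

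Gaps inside runs were much like those inside pairs. The rule holds both under 1000 bp, so their shortness and part of the likeness are built in. The 436 gaps had a median of 292 bp and quartiles of 159 and 501 bp, against 270 bp with quartiles of 158 and 493 bp in pairs. Gaps under 200 bp made up 34.4% in runs and 34.6% in pairs. The shortest gap was 77 bp in both. Between the centres of neighbouring peaks of a run lay 742 bp at the median, with quartiles of 593 and 982 bp. In 103 of the 178 runs of 3 peaks the first gap, at the lower coordinate, was the wider one, and in 75 the second. The wider gap exceeded the narrower by 225 bp at the median.

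The values on both sides of the limit of 1000 bp were as follows. The widest gaps inside runs were 971 bp on chromosome 9, 963 bp on chromosome 2 and 960 bp on chromosome 22. Only 15 of the 203 runs had a gap of 900 bp or more. Just outside the limit, gaps of 1010 bp on chromosome 4, 1013 bp on chromosome 9 and 1018 bp on chromosome 8 kept a chain of 3 from counting as a run. Beyond its own ends, a run had its next peak at a median of 17920 bp, and in 11 of 203 runs that peak was under 2000 bp away. It was under 2000 bp away for 90 of 2110 pairs as well, chains that a wider limit could turn into runs. The median was 18472 bp for pairs and 22789 bp for peaks without a close neighbour.

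**Figure D1:**
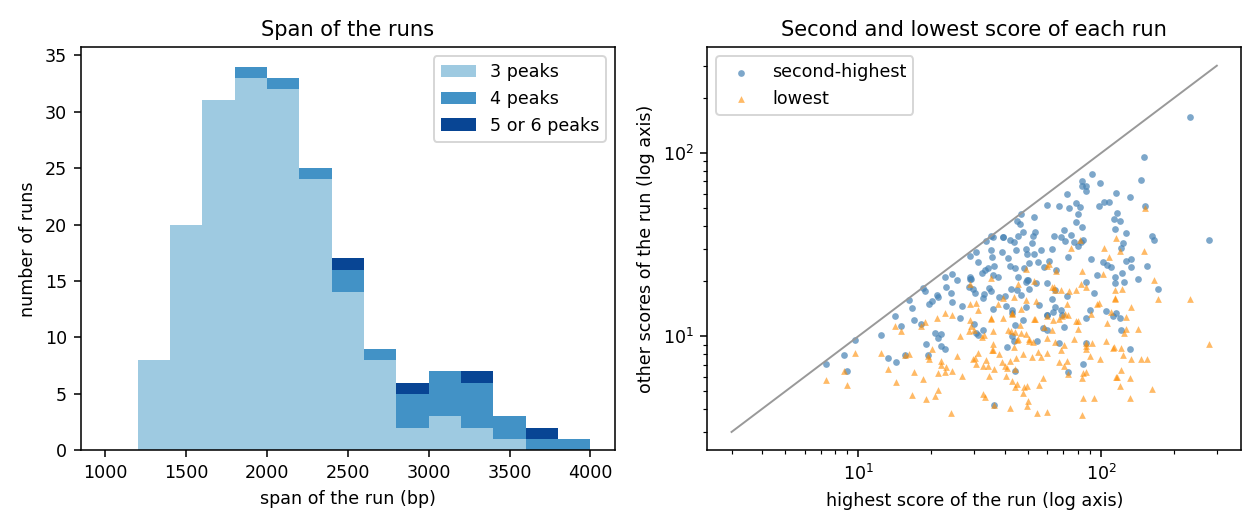
Left, number of runs by span in bins of 200 bp, coloured by the number of peaks. Right, second-highest and lowest score of each of the 203 runs against its highest score, on log axes with a line of equality. Most runs spanned about 2 kb, and the lowest score of a run lay between 3.72 and 49.98, at a median of 9.20.

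Peaks in runs were of ordinary to low score. The score is the authors' value for each peak, taken to be higher for stronger peaks, and the sources used here do not name its scale. Its median was 19.6 in runs, 23.5 in pairs, 23.6 in peaks without a close neighbour and 23.4 over all autosomal peaks. The lower quartiles were alike, at 10.6 in runs and 9.99 over all. The upper quartiles were not, at 41.8 in runs, 53.7 in pairs and 63.1 in peaks without a close neighbour. A score above 100 was held by 38 of the 639 run peaks, or 5.95% (interval 4.24 to 8.07%), beside 12.1% of all autosomal peaks. A score below 10 was held by 149, or 23.3% (interval 20.1 to 26.8%), beside 25% of all autosomal peaks. The share of high scores was below that of all autosomal peaks, and the share of low scores lay close to it. Scores come from the same calls as the runs, so this was not tested. Run peaks were also slightly narrower, with a median of 388 bp against 417 bp over all autosomal peaks.

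The highest and the lowest score of a run differed by 40.9 at the median. Sorted by score within each run, the highest score had a median of 50.6, the second-highest 20.9 and the lowest 9.20. Sorting alone sets this order, and the quartiles of all autosomal peaks were 9.99, 23.4 and 60.8. The highest exceeded the second by 26.05 at the median, with quartiles of 10.4 and 50.6. In 84 of 203 runs exactly 1 peak was above the median of all autosomal peaks. Every peak was above it in 10 runs, and none was in 29. In 112 runs the weakest peak scored below 10, and in 4 runs every peak did. Of all autosomal peaks 25% scored below 10, and the weakest of several peaks is low more often than a single peak. The shares that groups of ordinary peaks would give were not computed, so these counts do not show a trait of runs.

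The highest score was above 100 in 37 of 203 runs (18.2%, interval 13.2 to 24.2%) and in 16.4% of pairs. The maximum of a run is taken over more peaks than that of a pair, and per peak a score above 100 was held by 5.95% in runs and 8.36% in pairs. The second-highest score was above 100 in 1 run, the one on chromosome 6 from 27860657 to 27862611. Across the 203 runs, Spearman's rho was 0.48 between the highest and second-highest score and 0.28 between the highest and the lowest. These scores are ordered within each run and come from 1 library, so a positive value follows in part from the ordering. The highest-scoring peak was also the widest in 150 of 203 runs, or 73.9% (interval 67.3 to 79.8%). It was the wider of the pair in 82.2% of pairs. A pair has fewer peaks than a run, so its highest-scoring peak would be the widest more often even with score and width unrelated. These shares therefore do not show a weaker link of score and width in runs.

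The strongest peak was found at each place of a run about equally often. In the 178 runs of 3 peaks it was the first in 56, the middle in 66 and the last in 56. The middle share was 37.1% (interval 29.97 to 44.6%), and its interval includes the 33.3% that equal places would give. The weakest peak was the first in 58, the middle in 61 and the last in 58 of the 177 runs without tied scores. Median scores were 19.9 for the first, 21.0 for the middle and 19.4 for the last peak. The places thus overlapped almost entirely. The middle peak was the widest at the median, at 438 bp, against 391 bp for the first and 373 bp for the last.

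All 6 possible score orders occurred at similar numbers. A maximum in the middle was found with the lowest score first in 33 runs and with the lowest score last in another 33. A dip in the middle was found in 31 runs with the last peak highest and in 30 with the first highest. Scores rose along the run in 25 and fell in 25. The shares, out of 178, lay between 14.0 and 18.5%, and each interval includes the 16.7% of equal shares. When an end peak was the strongest, the middle peak was second in 50 of 112 runs and lower than the far end in 61, with 1 tie. Scores thus declined step by step from a strong end in 44.6% (interval 35.2 to 54.3%).

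**Figure D2:**
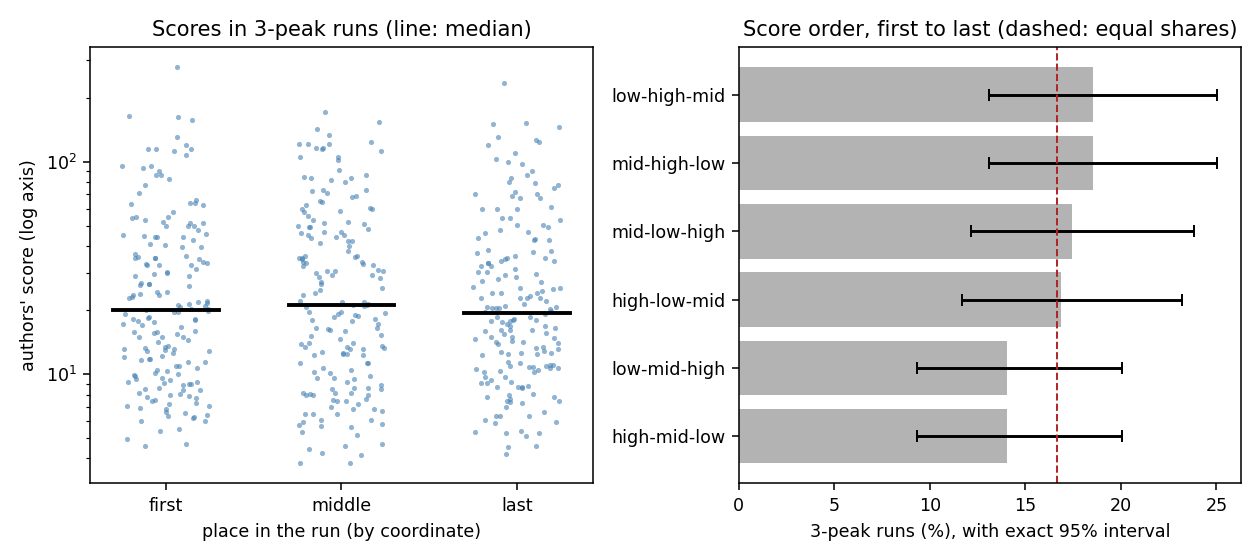
Left, the authors' score (log axis) of the first, middle and last peak in the 178 runs of 3 peaks, with the median as a line. Right, the share of these runs with each of the 6 score orders, with exact 95% intervals and a dashed line at equal shares of 16.7%. The medians of 19.9, 21.0 and 19.4 nearly coincide, and each interval includes the dashed line.

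Among the 66 runs with the middle highest, the stronger of the flanking peaks was nearer to the middle one in 27 (40.9%, interval 29.0 to 53.7%). The median gap was 329 bp to the stronger flank and 232 bp to the weaker. The highest score had a median of 56.8 in these runs and 47.6 in the 112 runs with an end highest, with quartiles that overlapped (37.0 and 85.8 against 29.4 and 86.5). Their median spans were 2012 and 1976 bp. In the 25 runs of 4 or more peaks an inner peak was highest in 12 (48.0%), while inner peaks made up 52.4% of their peaks. Scores had 2 local maxima, peaks above their neighbours in the run, in 16 of these 25 runs and 1 in the other 9. Arbitrary orders of scores can also give 2, and their share was not computed, so this is a description only.

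The longest runs were made of weak and moderate peaks. All coordinates are of build hg19 and 1-based. The only run of 6 lay on chromosome 5 from 133859899 to 133863571, and its scores from first to last were 42.3, 14.3, 7.28, 9.25, 24.1 and 16.4. It was strong at the lower end, weakest in the middle and rose again. The run of 5 on chromosome 18 from 18517028 to 18520339 scored 35.3, 23.9, 9.30, 52.6 and 22.2. The run of 5 on chromosome 15 from 99190332 to 99193213 had a single 1011 bp peak of score 59.9 at its centre, flanked by scores of 3.87 and 10.8 on one side and 8.53 and 7.21 on the other. The last run of 5, on chromosome 5 from 14142920 to 14145463, was weak throughout, at 17.0, 9.70, 9.25, 12.3 and 6.4. The 21 peaks of these runs had a median score of 12.3, against 20.1 in runs of 3. They come from only 4 runs. The highest scores of the chromosome 18 and 15 runs, 52.6 and 59.9, were above the median highest score of all runs, 50.6.

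Of the 5 runs with the largest spans, 3 had 4 peaks, 1 had 6 and 1 had 3. The run on chromosome 16 from 85644135 to 85648108 was the longest, at 3974 bp, and the most open, with gaps of 848, 808 and 816 bp. Its scores were 9.32, 14.5, 64.8 and 9.85. Another run on chromosome 16, from 54961887 to 54965656, spanned 3770 bp and scored 9.65, 56.5, 29.5 and 7.70. The run on chromosome 6 from 108878779 to 108882288 spanned 3510 bp and scored 68.7, 18.0, 34.7 and 27.2. With only 3 peaks, a run on chromosome 10 from 42596754 to 42600351 reached 3598 bp and scored 95.5, 29.1 and 150. These examples again show the maximum at either end or inside.

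In 4 of the 5 runs with the highest maxima, the other peaks scored far below the maximum. These runs were picked for their maximum, and the median of all autosomal peaks was 23.4. A large drop therefore follows in part from the choice. On chromosome 12, from 6960158 to 6961735, a 683 bp peak of score 278 was followed by peaks of 33.4 and 9.07, a difference of 245 between the highest and the second. On chromosome 9, from 99179540 to 99181765, a 1096 bp peak of score 171 lay between peaks of 18.1 and 16.0. On chromosome 17, from 36858395 to 36861584, the scores were 165, 33.5 and 20.2, and on chromosome 4, from 140003905 to 140005843, they were 162, 5.16 and 35.3. The run on chromosome 6 from 27860657 to 27862611 differed from these. Its outer peaks scored 157 and 233, with a 237 bp peak of 15.9 between them.

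A few runs had no weak member. On chromosome 22, from 19465239 to 19467683, the scores were 49.98, 51.1 and 152, and this run had the highest lowest score. The run on chromosome 19 from 27731878 to 27733459 scored 115, 60.6 and 34.2. On chromosome 8, from 95906719 to 95909192, the scores were 33.7, 82.1 and 50.5, and peaks covered 88.3% of the span. On chromosome 10, from 42383402 to 42385441, they were 35.6, 30.5 and 75.5. On chromosome 16, from 4321126 to 4323486, they were 54.2, 30.4 and 103. Which genes, exons or introns the runs lie in, and their DNA sequence, were not analysed here, since the reference tables at hand belong to assembly GRCh38.p14.

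**Figure D3:**
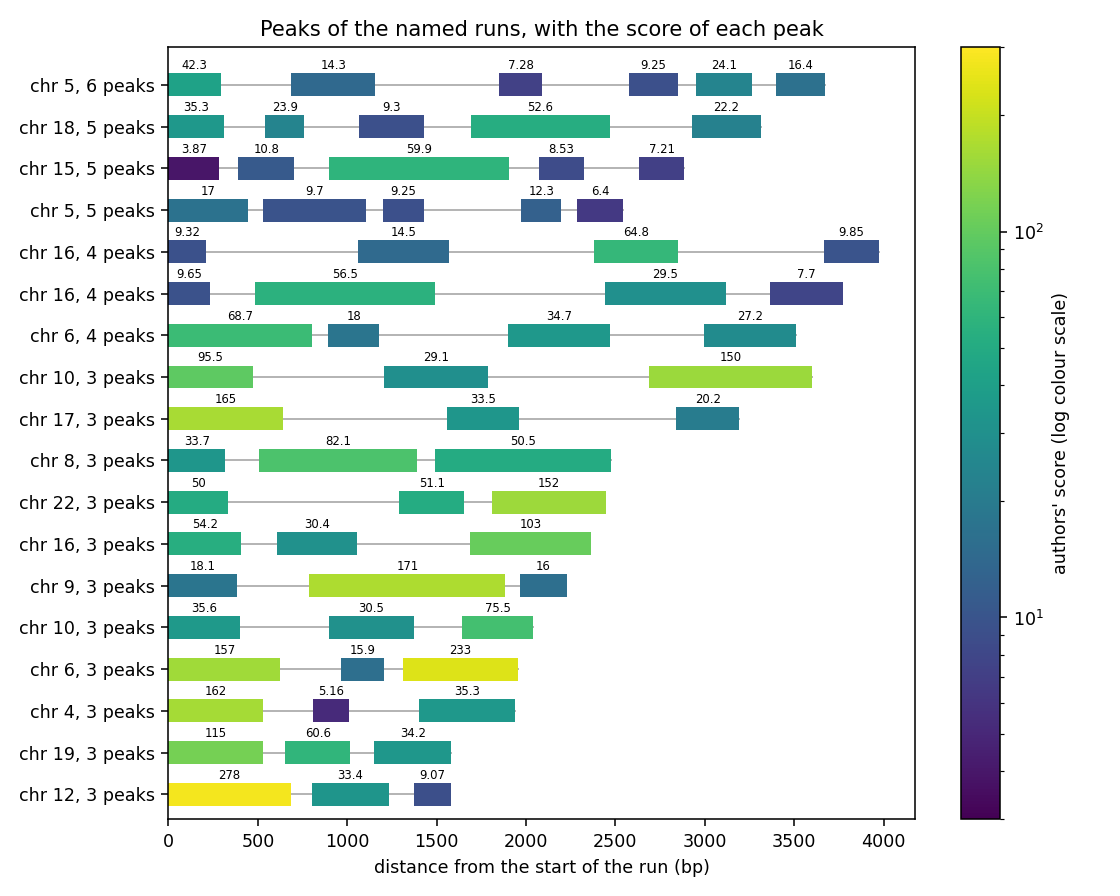
Peaks of the 18 runs named by rule, drawn to scale from the start of each run, 1 run per line, with chromosome and number of peaks at the left. Colour and printed numbers give the authors' score of each peak. The run of 6 on chromosome 5 is weakest in its middle, and the chromosome 12 run has its peak of 278 at its lower end.

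Runs were found on each of the 22 autosomes, from 1 on chromosome 21 to 19 on chromosome 17. Over the length that the peaks of a chromosome extend, chromosome 17 held 23.45 runs per 100 Mb and chromosome 19 held 20.4, against 7.28 over the autosomes and 2.97 on chromosome 11. Chromosomes 17 and 19 also hold many peaks. As a share of peaks, chromosome 19 was ordinary, with 36 of 1531 peaks in runs (2.35%, interval 1.65 to 3.24%). Chromosome 17 stayed high, with 58 of 1624 (3.57%, interval 2.72 to 4.59%).

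The share of peaks in runs had an interval that excluded the 2.27% of all autosomes on 5 of 22 chromosomes. Besides chromosome 17 it was above on chromosome 16 (42 of 1184 peaks, 3.55%, interval 2.57 to 4.76%) and chromosome 18 (18 of 430, 4.19%, interval 2.50 to 6.54%). It was below on chromosome 11 (12 of 1494, 0.803%, interval 0.416 to 1.40%) and chromosome 15 (11 of 984, 1.12%, interval 0.559 to 1.99%). The 12 peaks of chromosome 11 were in 4 runs, and the 11 of chromosome 15 in 3. Those of chromosomes 16, 17 and 18 were in 13, 19 and 5 runs. Chromosome 11 was not short of pairs to the same degree, with 13.4% of its peaks in pairs against 15.01% over the autosomes. The intervals treat the peaks of a run as independent and are too narrow. With 22 of them examined as well, these departures are given as a description only.

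**Figure D4:**
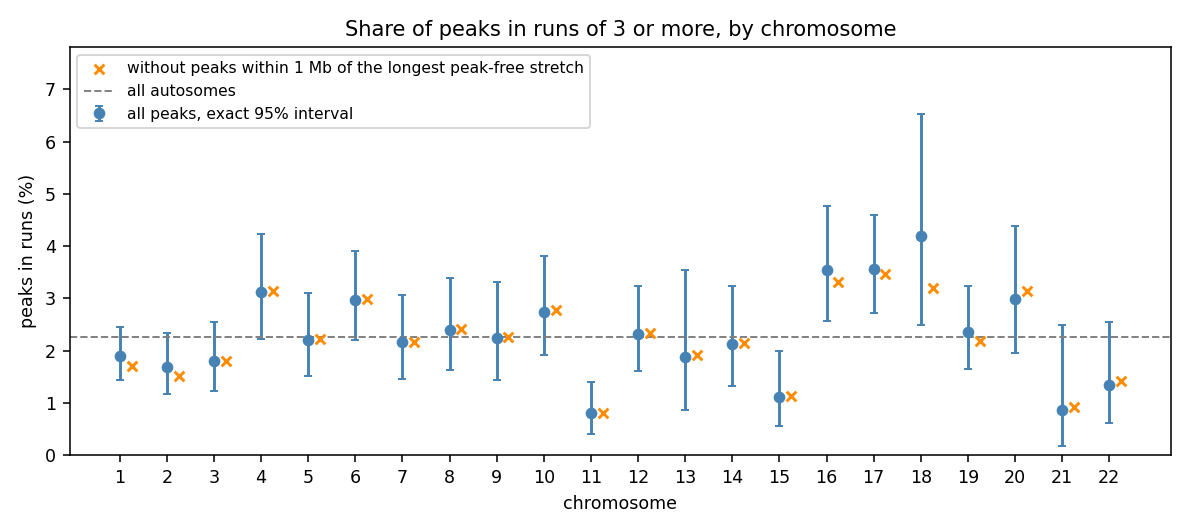
Share of the peaks of each autosome that lie in runs, with exact 95% intervals (circles), and the same share without peaks within 1 Mb of the chromosome's longest peak-free stretch (crosses). The dashed line is the share over all autosomes, 2.27%. Chromosome 11 is lowest at 0.803%, and chromosome 18 falls from 4.19 to 3.20% when the peaks near the stretch are left out.

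Some runs stood at the edge of a large peak-free stretch. Centromeres are known to be gaps in this assembly, flanked by satellite repeats. Some of the longest peak-free stretches can be gaps of this kind, which was not checked. Others need not be. On chromosome 10 the longest stretch ran from 107119736 to 110671602, and on chromosome 4 from 31343539 to 35771228. Runs beside a shorter peak-free stretch of a chromosome were counted as elsewhere. Within 1 Mb of the longest peak-free stretch of a chromosome were 7 of the 203 runs (3.45%, interval 1.40 to 6.98%), on 6 chromosomes. They held 25 of the 639 run peaks, or 3.91% (interval 2.55 to 5.72%), beside 1.48% of all autosomal peaks. Counted by runs, the interval includes that 1.48%, which is however a share of single peaks. The share of pairs or of all chains in these zones was not computed, so a like comparison is missing. Peaks of a run come together, so the intervals on peaks in this paragraph are too narrow. Seen from the other side, 25 of the 416 peaks in these zones were in runs (6.01%, interval 3.93 to 8.74%), and 614 of 27692 elsewhere (2.22%, interval 2.05 to 2.40%).

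In 3 of the 7 the run was the last called signal before the stretch or the first after it. One was on chromosome 2 from 92318423 to 92321699, with scores of 29.7, 18.3, 44.7 and 7.58. Another was on chromosome 1 from 142537505 to 142539292, with scores of 7.19, 5.61 and 14.3, and the last was the chromosome 19 run already given. The run of 5 on chromosome 18 lay 6069 bp from the stretch. Runs on chromosome 16 from 46391295 to 46394546 (scores 11.5, 46.5, 37.5 and 41.2) and on chromosome 17 from 22252029 to 22253388 (scores 51.4, 15.2 and 97.8) lay 5429 and 8391 bp from theirs. The seventh, on chromosome 1 from 121354211 to 121355902, scored 11.4, 29.2 and 20.6. The highest score of these 7 runs had a median of 46.5, against 50.6 in the other 196. Copy number, repeats and mappability were not measured here, and their part in these runs was not tested. Without these zones the share of peaks in runs on chromosome 18 was 3.20% (interval 1.72 to 5.41%), which includes the share over all autosomes. Chromosomes 16 and 17 stayed above it, at 3.31% (interval 2.35 to 4.52%) and 3.47% (interval 2.62 to 4.49%). These intervals treat the peaks of a run as independent, so they are too narrow to settle a departure. On chromosome 16 a run from 33973616 to 33975606 lay 1264233 bp from the stretch, just outside the zone. These zones were chosen after the runs had been seen.

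Most runs lay far from the next one. The median distance to the nearest other run on the chromosome was 2433070 bp, over the 202 runs that had one. Another run was within 100 kb for 14 of 203 runs (6.90%). The 203 runs fell in 180 bins of 1 Mb, of which 161 held a single run, 15 held 2 and 4 held 3. In all, 42 runs shared a bin with another. No spacing for an even spread was computed, so whether runs lay closer together than that was not tested. Run peaks sat in bins with a median of 20 peaks, peaks of pairs in bins with 19, and all autosomal peaks in bins with 16. Close neighbours required by the rule mostly share the bin of a peak, so part of this difference is built in.

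The closest runs were on chromosome 10, where 8656 bp separated the run from 42383402 from the next one, from 42394098 to 42396856, which scored 15.8, 19.7 and 49.0. With the run from 42596754 they made 3 runs within 217 kb, and 9 of the 24 peaks of that 1 Mb bin were in them. In each of the 3 the last peak was the strongest. The nearest of them lay 64519384 bp from the longest peak-free stretch of the chromosome, so all were outside the zones of 1 Mb. Whether they lie beside a shorter peak-free stretch or in repeats was not analysed. The other bins with 3 runs were on chromosome 10 from 104000001, on chromosome 20 from 60000001 and on chromosome 6 from 26000001.

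On chromosome 6, 5 of the 15 runs lay between 26 and 28 Mb. This stretch of the short arm is known for the largest human cluster of replication-dependent histone genes, which supply histones during S phase. No run was matched to a gene, so which of these runs lie at histone genes and which at other genes was not determined. Of the 104 peaks in these 2 Mb, 17 were in runs (16.3%, interval 9.82 to 24.9%), against 32 of the other 1543 peaks of the chromosome (2.07%, interval 1.42 to 2.92%). Peaks are dense here, with 48 and 56 in its bins of 1 Mb, where all autosomal peaks sat in bins with a median of 16. The part of this density in the share was not tested. The stretch was chosen after the runs had been seen.

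The 5 runs on this stretch differed widely in strength. The run from 26156339 to 26159286 scored 42.1, 4.06, 33.5 and 11.4, and the run from 26196428 to 26199613 scored 15.7, 133, 14.4 and 23.9. Only 37141 bp lay between them. Weak runs followed from 26312726 to 26313991 (9.005, 6.46 and 5.41) and from 27144904 to 27146456 (8.09, 10.2 and 12.4). The last was the run with outer scores of 157 and 233. High and low runs thus stood in the same 2 Mb, and in 3 of the 5 runs the lowest score was an inner one.

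Exact repeats of a score were rare in runs. Over the complete list, 27 score values between 4.37 and 27.2 were each held by at least 25 peaks. Among run peaks in that range, 6 of 386 had such a value (1.55%, interval 0.573 to 3.35%), beside 14.4% of all autosomal peaks in the range. In pairs the share was 2.25% (interval 1.68 to 2.96%), and in peaks without a close neighbour 17.04% (interval 16.4 to 17.7%). These shares compare peaks by their surroundings within 1 list, and what sets the repeated values was not tested.

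All 6 of these peaks belonged to 2 runs, each of which consisted of nothing else. The run on chromosome 7 from 143951911 to 143953534 scored 6.44, 7.93 and 8.70. The run on chromosome 19 from 45250676 to 45252338 scored 15.5, 7.93 and 7.93, and it was the only run of 3 with tied scores. In the other 201 runs no peak had a value held by at least 25 peaks.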

How the data were processed

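A single peak list of the E2F1 library was analysed. The submitters' processing notes name MACS2 2.0.9, CASAVA 1.6.0, Bowtie and build hg19. What each did, the peak threshold and whether input was the control were not given in the sources used here. Each line of the headerless file holds chromosome, start, end, name and the authors' score. The score deposited by the authors was used to describe and rank peaks within the list. Starts were read as 0-based and are printed 1-based.

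Peaks of chromosomes 1 to 22 were sorted by start, and chains were formed where the start of a peak minus the end of the previous one was under 1000 bp, leaving out 626 peaks of X, Y and the mitochondrial chromosome. The chain finder was checked on simulated data. Shares have exact Clopper-Pearson 95% intervals, which cover counting error only. No test was made. Depth is unknown. Python 3.11.15, pandas 2.3.3, numpy 2.4.6, scipy 1.17.1 and matplotlib 3.10.9 were used.

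Named runs were the 5 with most peaks (ties by span), the 5 longest, the 5 with the highest maximum, the 5 with the highest lowest score and the 3 with the largest difference between highest and second. Other runs and stretches named were chosen after their values were seen. The members and gene lists were chosen with earlier results of these data known. Gene positions, gene lists and sequence were not used, since the reference tables are of assembly GRCh38.p14. Alternatives were gap limits of 500 and 2000 bp, the top 50% and 75% of peaks by score, other chromosome sets, and other forms of the order within runs.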

Additional observations from a re-analysis of the deposited data

Results flagged for a closer look

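Runs of 3 or more close peaks also occurred outside the autosomes, in data that the report does not use, and were singled out for that reason. The input sample of the series was not analysed here, so they were not compared with it. Chromosome X held 4 runs with 12 of its 582 peaks, and their highest scores lay between 21.0 and 51.9. Chromosome Y held 1 run of 3 peaks, from 13473770 to 13475878, with a highest score of 16.7. The mitochondrial chromosome held 1 run, of 7 of its 9 peaks, which spanned 6770 bp from 9760 to 16529 and had a highest score of 40.2. That run had more peaks and a longer span than any of the 203 autosomal runs.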

How the results depend on the processing

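Of 33 alternatives, 17 stayed within the interval of the value reported (a count within 1.5 times) and 16 moved. With gaps under 500 bp there were 117 runs, holding 1.29% of peaks, with a median span of 1850 bp. With gaps under 2000 bp the share was 3.35% and the median span 2378 bp, while 296 runs was within 1.5 times. The top 75% of peaks by score held 96 runs, with 1.42% of peaks, a median span of 2204 bp and a median score of 25.6. The top 50% held 14 runs, with 0.300% of peaks, 2472 bp and a median score of 48.3. These sets have fewer peaks and higher scores by construction. The share of runs of 3 peaks with the middle highest, 37.1%, was 21.4% in the top 50% (14 runs, interval 4.66 to 50.8%). For an inner peak in runs of 4 or more it was 48.0%, where more places are inner ones. It was 27.8% (22 of 79, interval 18.3 to 39.1%) in isolated trios with gaps from 1000 to under 5000 bp, an interval that overlaps the one for runs. Leaving out chromosomes 6 and 19, or the zones beside the longest peak-free stretches (added after seeing the data), moved none of the 5 values. Alternatives on gene starts were not run. No paired analysis was possible because peaks of a single library were used. Limits set by depth are unknown without read counts.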
